A study of Mus musculus with 6 samples.

Results

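The clustered replication histone genes were the 67 protein-coding mouse genes, of 53379 genes in the count files, whose GENCODE M21 symbol begins with Hist1h, Hist2h, Hist3h or Hist4h. They comprised 6 H1, 18 H2A, 18 H2B, 12 H3 and 13 H4 genes, and the count files held each one in the same gene version as the annotation. RNA-seq was done on splenic T follicular helper (Tfh) cells, the CD4+ cells that help B cells in germinal centers, sorted as live TCRβ+CD4+CXCR5+PD1+ cells from female mice of 6 to 8 weeks on day 7 after immunization with NP-CGG in complete Freund's adjuvant. Each of 6 mice gave 1 Smart-seq2 library, a method that copies RNA from its poly(A) tail with an oligo-dT primer and was run here with paired reads of 25 bases.

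The groups were 3 *Prdm1*-CKO mice, which were *Prdm1* fl/fl with CD11c-Cre, and 3 control (CTL) mice, which were either *Prdm1* fl/fl without the Cre or *Prdm1*+/+ with it. The labels do not say which CTL mouse had which genotype, and they call the second group Blimp1 KO in one field and Blimp1 KD in another. The Cre is driven by the CD11c promoter, which is active in dendritic cells, so *Prdm1*, the gene for BLIMP1, is not meant to be lost in the Tfh cells themselves. *Prdm1* counts were 422, 253 and 186 in CTL and 536, 303 and 451 in *Prdm1*-CKO mice, here and below in the order of replicates 1 to 3, and these check no label. Total counts lay between 7147601 and 16973392. CTL replicate 2 stood apart, since its levels correlated with those of the other mice at 0.875 on average, against 0.923 to 0.944 for each of them. The lowest of the 8 Tfh markers was *Il21*, at 10.4 CPM (normalized counts, scaled to library size with edgeR's TMM factors) in its lowest mouse.

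Histones package DNA: H2A, H2B, H3 and H4 form the nucleosome core, and H1 binds the linker between cores. The clustered genes supply most new histone in S phase, when DNA is copied, and their mRNAs typically end just after a short stem-loop instead of a poly(A) tail. The stem-loop binds the protein SLBP, a U7 snRNP-guided cut is made just past it, and the mRNA is degraded when S phase ends. Some of these genes also make polyadenylated transcripts that run past the stem-loop, and an oligo-dT primer favors those.

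The stem-loop was therefore looked for first. The letters searched for were a stem of 6 bases beginning GG and ending in T, a loop of 4 bases beginning TTT, and the perfectly paired second strand. They were found in the annotated exons of 44 of the 67 genes, against 11 of 21961 other protein-coding genes (0.0501%). The windows below come from GENCODE M21 transcripts. *Hist1h1c*, *Hist1h2ae*, *Hist1h2bg*, *Hist1h3c* and *Hist1h4d* are the genes of their type with the letters and the most counts, *Hist1h2ab* stands for models that end near the stem-loop, and *Hist1h4i* and *Hist1h4j* for other letters in H4. They are written 5′ to 3′ as DNA, with the stem-loop in capitals and up to 5 bases on each side.
Hist1h1c: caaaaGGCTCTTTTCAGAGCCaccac
Hist1h2ae: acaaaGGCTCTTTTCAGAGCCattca
Hist1h2ab: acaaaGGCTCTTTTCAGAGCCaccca
Hist1h2bg: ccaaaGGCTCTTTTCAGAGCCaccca
Hist1h3c: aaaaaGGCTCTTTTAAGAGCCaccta
Hist1h4d: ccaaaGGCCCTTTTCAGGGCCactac
Hist1h4i: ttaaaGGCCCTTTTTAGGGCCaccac
Hist1h4j: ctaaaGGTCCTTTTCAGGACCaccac
The stem letters separated H4 from the other types. All 33 stem-loops found in H1, H2A, H2B and H3 genes had the stem GGCTCT, whereas 9 of the 11 in H4 genes had GGCCCT and the other 2 had GGTCCT.

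The annotated 3′ ends divided the genes into 4 kinds. In 25 genes the transcript model ran more than 50 bases past the stem-loop, by 51 to 4884 bases with a median of 454. In 19 genes it ended 3 to 46 bases past it, close to where the usual S phase form ends. A further 12 genes had untranslated bases without these letters, and 11 were annotated as coding sequence only. The 25 models that ran past the stem-loop took 77.9% of all counts on clustered histone genes, and 19 of them were counted in every mouse, where counted means over 3 counts. The 19 models that ended near it took 9.29%, with 6 counted in every mouse. The 12 without the letters took 10.5%, and the 11 of coding sequence only took 2.32%, with 3 of each counted in every mouse. The share of the long models lay between 75.2% and 79.5% in the 6 mice. Models that end early are also shorter, at a median of 480 exon bases against 1138, so they offer fewer bases to be counted.

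Over all types, 31 of the 67 genes (46.3%) were counted in every mouse, against 10706 of 21865 protein-coding genes in the count files (49%). A total of 56 were counted in at least 1 mouse, 11 were never above 3 counts, and 10 of these were at 0 in all 6 mice. The level that 3 counts correspond to lay between 0.169 and 0.444 CPM, so a gene at 0 could lie anywhere under that, and this covers counting error only. All clustered histone genes together took 3105, 1416 and 1983 of the counts in the CTL libraries and 4052, 3430 and 4252 in the *Prdm1*-CKO libraries, which was 0.0164% to 0.0352% of a library. The 5 genes with the most counts took 52% of the sum over mice and the first 15 took 80.1%. The numbers of genes above 3 counts were 42, 37 and 39 in CTL and 45, 47 and 51 in *Prdm1*-CKO mice. After thinning every library to 7147601 counts, in a single random draw, they were 38, 36 and 39 against 41, 44 and 42. The ranges of the groups did not overlap in either form, but after thinning their nearest values, 39 and 41, lay close. The same number over all genes was not taken, so whether this is particular to the histone genes was not tested.

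Many histone genes are near copies of one another, and reads of 25 bases can match several. The share of a gene's exon 25-mers that occur in the transcripts of no other M21 gene was therefore set beside its counts. The 17 genes under 10% took 2.57% of the counts, with 3 counted in every mouse and 6 at 0 throughout. The 27 genes between 10% and 50% took 18.4%, with 11 counted in every mouse, and the 23 genes over 50% took 79.0%, with 17 counted in every mouse. This split overlaps with that by 3′ end. The median share was 66.0% for models that ran past the stem-loop and 24.3% for those that ended near it. It was 35.0% for those without the letters and 9.38% for coding sequence only. The parts of 3′ end, length and shared sequence in the counts cannot be told apart. How reads that align to several genes were treated is not given in the sources used here, so a low count in a near copy cannot be told apart from reads that were discarded.

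**Figure D1:**
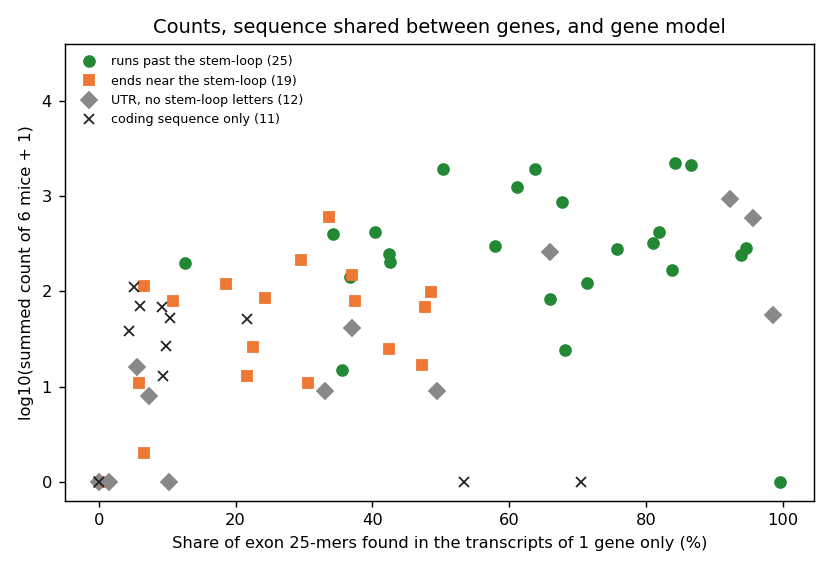
Summed count over the 6 mice, as log10(count + 1), against the share of a gene's exon 25-mers found in the transcripts of that gene only, for the 67 clustered histone genes with the kind of gene model marked. The genes with the highest counts lie on the right and mostly have models that run past the stem-loop, while 7 of the 10 genes at 0 have between 0% and 10.2% of their own 25-mers.

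The 10 genes at 0 fell into 3 kinds. *Hist2h2aa1*, *Hist2h2aa2*, *Hist2h2bb*, *Hist2h3b* and *Hist2h3c1*, all in the Hist2 cluster, had no 25-mer of their own. *Hist1h2bq* and *Hist1h2br* shared 98.6% and 89.7% of their 25-mers with each other. *Hist1h1t*, *Hist1h2aa* and *Hist1h2ba*, which encode the testis forms of H1, H2A and H2B, had 99.7%, 70.5% and 53.3% of their own, so most of their sequence could have been counted.

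H1 genes encode linker histones, and 5 of the 6 were counted in every mouse, the exception being *Hist1h1t*. They took 29.3% of the counts on clustered histone genes summed over mice, the largest share of the 5 types except in *Prdm1*-CKO replicate 2, where H2A took 28.2% and H1 26.4%, from models with a median of 1236 exon bases. *Hist1h1c* (chr13:23738808-23740367) had 32.9, 14.7 and 29.9 CPM in CTL and 27.8, 30.8 and 36.0 CPM in *Prdm1*-CKO mice. *Hist1h1e* (chr13:23620629-23622558) had 18.2, 21.1 and 39.2 CPM against 23.9, 36.4 and 30.3 CPM. The groups overlapped for both, with CTL replicate 2 the lowest mouse for *Hist1h1c* and CTL replicate 3 the highest for *Hist1h1e*. Their log2 fold changes, given throughout for *Prdm1*-CKO over CTL, were 0.29 (SE 0.32) and 0.21 (SE 0.33). *Hist1h1b* had 9.25, 11.1 and 20.4 CPM in CTL and 10.3, 18.4 and 13.7 CPM in *Prdm1*-CKO mice, nearly equal means, with a log2 fold change of 0.06 (SE 0.39). *Hist1h1d* had 3.77, 1.30 and 2.96 CPM against 3.04, 5.39 and 6.44 CPM, so 2 of the 3 *Prdm1*-CKO mice exceeded all CTL mice. Its model is 7425 bases long, which made it the lowest of these H1 genes per kilobase, at 0.514 CPM per kb against 18.4 for *Hist1h1c*, 18.7 for *Hist1h1b* and 14.6 for *Hist1h1e*. *Hist1h1e* shares 816 exon bases with *Hist1h2be* and *Gm11398* on the same strand, and counts there cannot be assigned to one gene.

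H2A genes took 25.1% of the counts, and 8 of the 18 were counted in every mouse. A single gene, *Hist1h2ae* (chr13:23570517-23571220), held 42.4% of the H2A counts. It had 16.03, 19.1 and 29.7 CPM in CTL and 21.0, 55.7 and 28.9 CPM in *Prdm1*-CKO mice, and the groups overlapped apart from *Prdm1*-CKO replicate 2, which was far above the rest. Its mean was 21.6 ± 7.20 CPM (SD, n = 3) in CTL and 35.2 ± 18.2 CPM (SD, n = 3) in *Prdm1*-CKO mice. Per kilobase of exon it was the highest of all 67 genes, at 40.4 ± 20.5 CPM per kb (SD over 6 mice), a lead over *Hist1h4d* (28.3 ± 12.1) that is smaller than either spread. *Hist1h2ab*, whose model ends 11 bases past the stem-loop, had 4.93, 5.80 and 12.1 CPM in CTL and 7.72, 13.7 and 8.56 CPM in *Prdm1*-CKO mice. It was thus counted in all mice, at 18.6 CPM per kb, with no annotated exon beyond that point. *Hist3h2a* had 16.2, 3.91 and 8.73 CPM against 11.7, 10.1 and 15.3 CPM, but 32.3% of its 25-mers are also those of *Trim17*, an overlapping gene on the same strand.

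The next H2A genes were lower. *Hist1h2ac* had 6.03, 2.96 and 4.29 CPM in CTL and 5.86, 6.41 and 7.74 CPM in *Prdm1*-CKO mice. *Hist2h2ac* had 4.11, 3.67 and 6.21 CPM against 4.23, 6.71 and 8.49 CPM. In each of these the groups overlapped in a single mouse of either group, and the log2 fold changes were 0.58 (SE 0.44) and 0.48 (SE 0.46). *Hist1h2ag* had 1.16, 1.18 and 1.18 CPM against 1.58, 2.14 and 2.33 CPM. *Hist1h2ai* had 0.480, 0.711 and 0.888 CPM against 1.07, 0.915 and 1.58 CPM. These 2 were the only tested H2A genes with every *Prdm1*-CKO mouse above every CTL mouse, and 18.7% and 5.96% of their 25-mers were their own.

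H2B genes were as many as H2A genes but took 14.0% of the counts, with 7 of 18 counted in every mouse. *Hist2h2be*, known for its use in olfactory neurons, led them at 8.36, 9.003 and 4.73 CPM in CTL and 9.80, 8.54 and 6.71 CPM in *Prdm1*-CKO mice. Its model of 2620 bases holds none of the stem-loop letters, and 95.6% of its 25-mers are its own. *Hist1h2bg* had 6.71, 5.45 and 7.84 CPM in CTL and 5.35, 4.58 and 5.89 CPM in *Prdm1*-CKO mice, one of the few members with a lower *Prdm1*-CKO mean, though the groups overlapped (log2 fold change -0.34, SE 0.39). *Hist1h2be* had 5.41, 1.07 and 3.40 CPM against 3.55, 6.81 and 5.55 CPM. *Hist3h2ba* had 3.56, 1.66 and 4.73 CPM against 4.51, 5.80 and 4.52 CPM. CTL replicate 2 was the lowest mouse for both. *Hist1h2bh* had 1.78, 1.42 and 1.18 CPM in CTL and 0.789, 0.610 and 1.10 CPM in *Prdm1*-CKO mice, and was the only tested member with every *Prdm1*-CKO mouse below every CTL mouse.

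H3 genes took 6.91% of the counts, the smallest share, with 5 of 12 counted in every mouse and a range of 6.15% to 7.64% over the mice. *Hist1h3c* led them at 2.06, 4.26 and 5.92 CPM in CTL and 2.31, 4.07 and 4.11 CPM in *Prdm1*-CKO mice, with the CTL group spanning the other. *Hist1h3f* had 3.08, 1.30 and 3.85 CPM against 2.14, 4.07 and 3.01 CPM, also overlapping. *Hist1h3a* had 1.10, 1.42 and 1.18 CPM in CTL and 1.58, 3.36 and 3.42 CPM in *Prdm1*-CKO mice. *Hist1h3d* had 0.685, 1.42 and 0.296 CPM against 1.58, 1.83 and 3.49 CPM. In these 2 genes the lowest *Prdm1*-CKO mouse exceeded the highest CTL mouse, and their log2 fold changes were 1.17 (SE 0.60) and 1.502 (SE 0.75). *Hist1h3g*, singled out after its values were seen, had counts of 1, 0 and 2 in CTL and of 11, 16 and 10 in *Prdm1*-CKO mice and did not pass the expression filter. Its *Prdm1*-CKO mean was 0.977 ± 0.564 CPM (SD, n = 3), or 2.92 times the mean level that 3 counts correspond to in the CTL libraries. That ratio leaves out counting error and the spread between mice. The share of unfiltered genes with such a pattern was not taken.

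H4 genes encode nearly a single protein from many copies, and they took 24.8% of the counts, with 6 of 13 counted in every mouse and none at 0 in all mice. *Hist1h4d* (chr13:23581598-23582735) had the most counts of all 67 genes in the sum over mice, and it led in 2 of the 6 mice, while *Hist1h1c* led in CTL replicate 1 and *Prdm1*-CKO replicate 3, *Hist1h1e* in CTL replicate 2 and *Hist1h2ae* in *Prdm1*-CKO replicate 2. It was at 17.2, 17.2 and 45.7 CPM in CTL and 29.0, 49.2 and 35.1 CPM in *Prdm1*-CKO mice. *Hist1h4i* (chr13:22040636-22041362) was more even, at 16.1, 13.7 and 20.9 CPM against 17.97, 20.8 and 17.0 CPM. The groups overlapped for both, and CTL replicate 3 was the highest CTL mouse for each. Together they held 77.0% of the H4 counts, and their models run 770 and 330 bases past the stem-loop. *Hist1h4n*, which ends 31 bases past it, had 0.959, 0 and 0.592 CPM in CTL and 1.24, 1.02 and 1.99 CPM in *Prdm1*-CKO mice. The 0 in CTL replicate 2 allows up to 0.355 CPM, and the groups did not overlap.

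**Figure D2:**
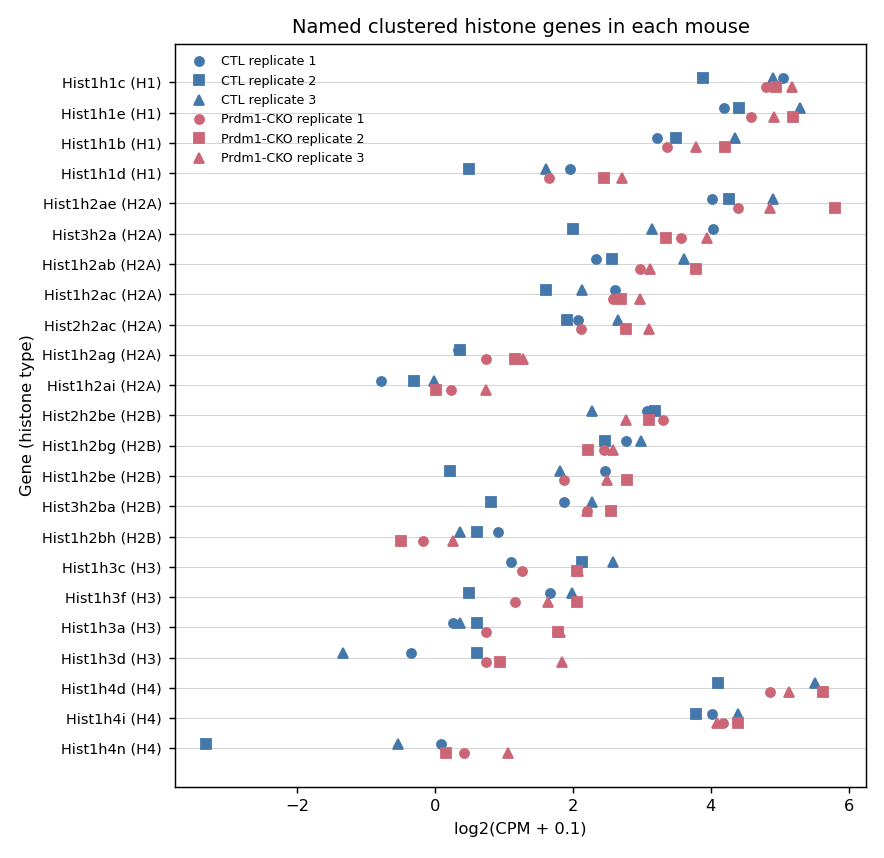
Level of the 23 named clustered histone genes in each mouse, as log2(CPM + 0.1), with CTL mice in blue and *Prdm1*-CKO mice in red and the symbol giving the replicate number. The genes are ordered by histone type, most groups overlap, and the 6 genes whose groups are apart reach at most 3.49 CPM.

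The share of each type in the counts of a mouse ran from 26.4% to 32.0% for H1, from 22.5% to 28.2% for H2A, from 10.8% to 17.0% for H2B and from 21.9% to 27.5% for H4. H2A genes summed to 51.0, 37.9 and 66.1 CPM in CTL and 54.8, 98.2 and 77.0 CPM in *Prdm1*-CKO mice. The mean was 1.48-fold higher in *Prdm1*-CKO mice, the largest ratio of the types, but CTL replicate 3 lay above *Prdm1*-CKO replicate 1. The ratios were 1.18 for H1, 1.25 for H2B, 1.29 for H3 and 1.26 for H4, and the groups overlapped in each. The sum over all 67 genes was 224.6 ± 63.7 CPM (SD, n = 3) in CTL and 289.4 ± 60.2 CPM (SD, n = 3) in *Prdm1*-CKO mice, a ratio of 1.29. Its values were 213, 168 and 293 CPM in CTL and 228, 349 and 291 CPM in *Prdm1*-CKO mice, so the difference in means was about as large as the spread within a group. In a bulk sample, fewer cells making a transcript and less of it per cell cannot be told apart.

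**Figure D3:**
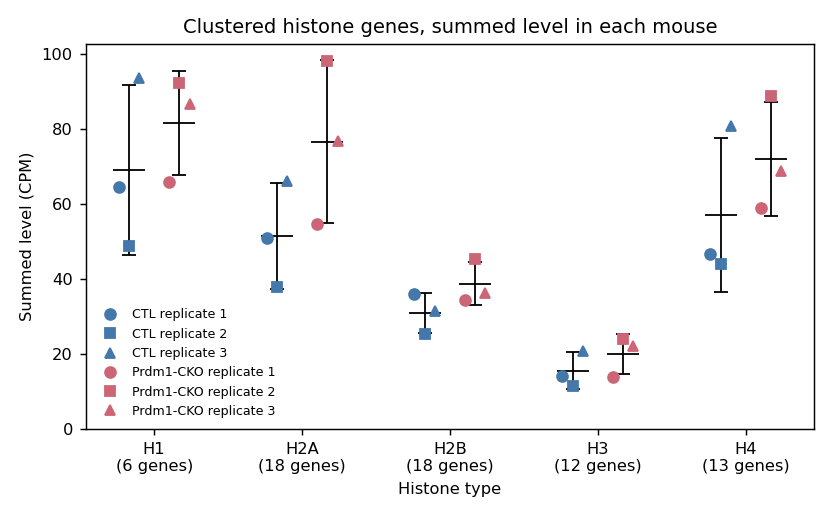
Summed level in CPM of the clustered histone genes of each type in each mouse, with CTL mice in blue, *Prdm1*-CKO mice in red, and the black line and bars giving the mean and SD of 3 mice. The groups overlap in every type, and *Prdm1*-CKO replicate 2 is the highest mouse for H2A, at 98.2 CPM.

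By position, the 54 genes of the Hist1 cluster on chromosome 13 took 85.9% of the counts, with 25 counted in every mouse. The 10 Hist2 genes on chromosome 3 took 6.85%, the 2 Hist3 genes on chromosome 11 took 6.36% and the single Hist4 gene on chromosome 6, *Hist4h4*, took 0.921%. Both Hist3 genes and *Hist4h4* were counted in every mouse, whereas 5 of the 10 Hist2 genes were at 0. The Hist3 sum was 19.8, 5.57 and 13.5 CPM in CTL and 16.2, 15.9 and 19.8 CPM in *Prdm1*-CKO mice, and CTL replicate 2 was again the lowest.

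In the clusters, 12 H2A genes stand head to head with an H2B gene, with 175 to 305 bases between their starts, so that a pair shares its upstream region. The counts of the partners were often unequal. *Hist1h2ae* exceeded *Hist1h2bg* in all 6 mice, with 234, 161 and 201 counts against 98, 46 and 53 in CTL and 373, 548 and 422 against 95, 45 and 86 in *Prdm1*-CKO mice, or 4.58-fold in the sum. *Hist1h2ai* exceeded *Hist1h2bl* in all 6 mice too, whereas *Hist1h2bk* exceeded *Hist1h2ah* and *Hist1h2bj* exceeded *Hist1h2ag* in all 6. In the other 8 pairs no partner was higher in every mouse, and *Hist1h2aa* and *Hist1h2ba* were both at 0. These are counts, not levels per length, and the partners differ in length and in the share of their own 25-mers.

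**Figure D4:**
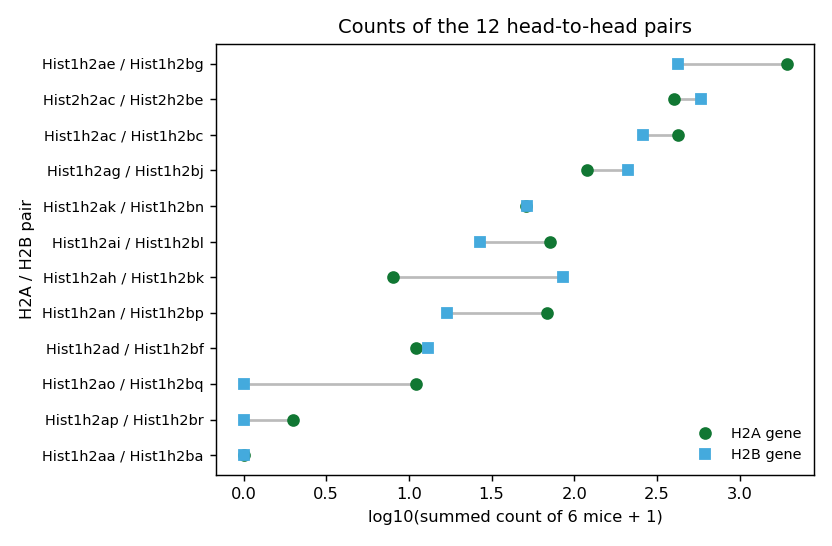
Summed counts over the 6 mice, as log10(count + 1), of the H2A gene (circles) and the H2B gene (squares) of each head-to-head pair. The pair *Hist1h2ae* and *Hist1h2bg* has the most counts and lies far apart, at 1939 and 423 counts, while *Hist1h2ak* and *Hist1h2bn* coincide nearly, at 50 and 51.

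Promoter sequences of 300 bases, from 250 before to 50 after the start, were held for 62 of the 67 genes in the RefSeq table on GRCm38.p6. The octamer ATTTGCAT, read on both strands and known as the binding letters of OCT1, was in 7 of 18 H2A and 6 of 16 H2B promoters and in none of the 6 H1, 10 H3 and 12 H4 promoters, against 1.75% of 27025 promoters. The letters TATAAA were in 56.5% of the 62 against 14.2% of all promoters. TATAAA and CCAAT were also read on both strands. Where the windows of head-to-head partners overlap, a site counts for both genes. CCAAT was in all H1, H2A, H2B and H3 promoters of the set but in 3 of 12 H4 promoters, against 37.9% of all. The shared upstream region of the most counted pair is shown for the *Hist1h2bg* side, on the plus strand at chr13:23571150-23571449, with the octamer and TATAAA in capitals, and it also covers the first bases of *Hist1h2ae* on the other strand.
Hist1h2bg: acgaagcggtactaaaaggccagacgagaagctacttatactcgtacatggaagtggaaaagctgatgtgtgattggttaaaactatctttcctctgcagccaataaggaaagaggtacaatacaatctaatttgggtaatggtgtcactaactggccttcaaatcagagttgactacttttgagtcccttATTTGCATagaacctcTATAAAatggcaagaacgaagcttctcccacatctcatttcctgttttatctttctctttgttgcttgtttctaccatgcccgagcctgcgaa
A match of letters is a description and not a measured binding site.

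Whether the clustered histone genes differed between *Prdm1*-CKO and CTL Tfh cells was tested with edgeR's quasi-likelihood test over all 14555 genes that passed its expression filter, 39 of the 67 among them. The 28 not tested held 1.85% of the counts. Neither a higher nor a lower member had an adjusted p under 0.05, as for 0% of all genes tested, and the smallest adjusted p was 0.996. No member reached an unadjusted p under 0.05 in edgeR either, against 0.928% of all genes higher and 1.42% lower in *Prdm1*-CKO mice, and the smallest was 0.0792, for *Hist1h3d*. In DESeq2, which tested 57 of the members, 0 had an adjusted p under 0.05, the smallest being 0.999, and *Hist1h3g* alone had an unadjusted p under 0.05, at 0.0407, where 1.01% of all genes were higher at that p. Leaving out a mouse gave 0 to 2 members with an unadjusted p under 0.05 in edgeR, and these were *Hist1h4h* without CTL replicate 1, *Hist1h2bn* and *Hist1h3d* without CTL replicate 2, *Hist1h2ae* and *Hist1h4d* without CTL replicate 3, and again *Hist1h2ae* when *Prdm1*-CKO replicate 1 was left out. In those fits 3.94%, 1.43%, 2.14% and 0.683% of all genes were higher at that p. Leaving out *Prdm1*-CKO replicate 2 or 3 gave 0 members, against 0.494% and 0.394% of all genes.

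Among the tested members, 32 of 39 (82.1%) had a log2 fold change above 0, against 51.1% of all genes tested, and the median was 0.46 against 0.01. All 8 H2A genes, 9 of 11 H2B, 6 of 8 H4, 5 of 7 H3 and 4 of 5 H1 genes lay above 0. The values ran from -0.81 for *Hist1h2bh* to 1.502 for *Hist1h3d*, with a median standard error of 0.57, and 16 of the 39 changes were larger than 1 standard error and 1 larger than 2. The genes share mice and often sequence, and the filter can keep a gene through the 3 mice of one group, so these counts are a description. The median was 0.17 among the 22 members with at least 10 counts in every mouse and 0.29 without the members that share exons with another gene. Leaving out CTL replicate 2 gave 0.21, and leaving out *Prdm1*-CKO replicate 2 gave 0.20.

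**Figure D5:**
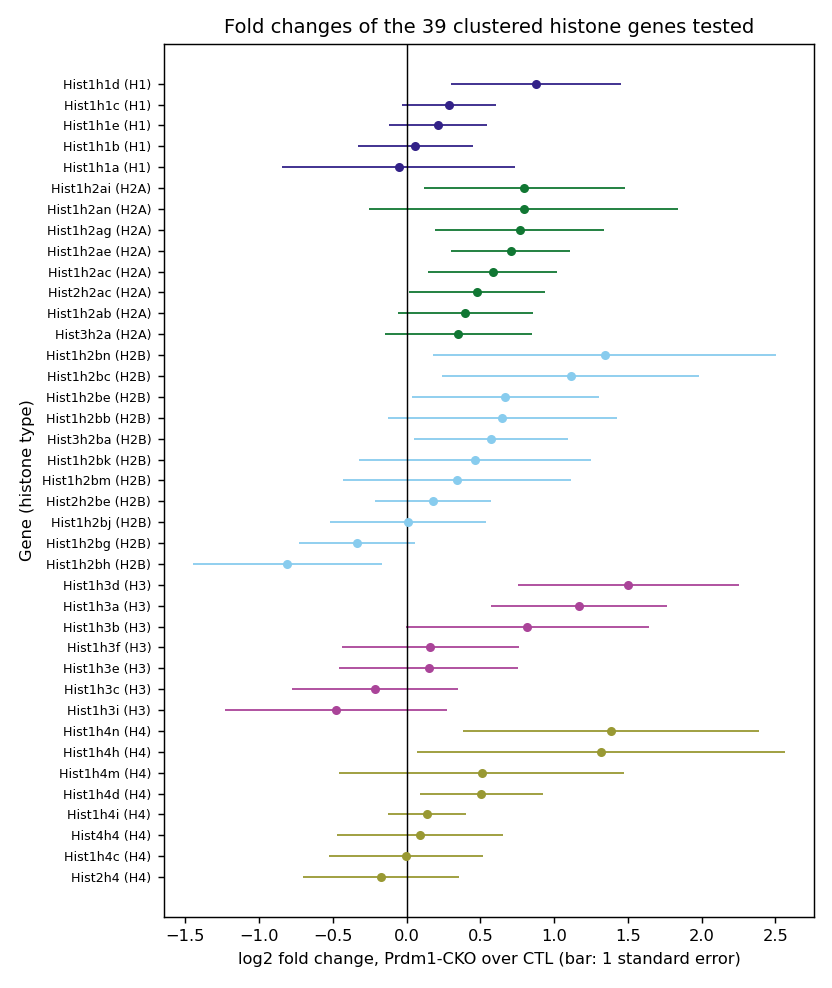
Log2 fold change of *Prdm1*-CKO over CTL for the 39 clustered histone genes tested, from edgeR, with bars of 1 standard error and colors by histone type. All 8 H2A genes lie to the right of 0, and no gene of any type passed the test.

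The lowest *Prdm1*-CKO mouse exceeded the highest CTL mouse for 5 of the 39 members (12.8%), against 4.56% of all genes tested, and the highest *Prdm1*-CKO mouse was under the lowest CTL mouse for 1 (2.56%), against 3.86%. The 5 were *Hist1h2ag*, *Hist1h2ai*, *Hist1h3a*, *Hist1h3d* and *Hist1h4n*, each with a two-sided exact permutation p of 0.1, the smallest that 3 mice against 3 can give. None of the 10 members with the most counts was among them. The expression filter can keep a gene through the 3 mice of the group where it is high. The tested set is thus not independent of this pattern, and the shares are a description.

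Histone genes outside the clusters, of which 14 with polyadenylated transcripts were listed, took far more counts. Of the 14, 3 were at 0 in every mouse. The 14 listed variant genes together took 5.49 to 9.36 times as many normalized counts as the 67 clustered genes in the 6 mice. Per kilobase, *H3f3b* (histone H3.3) reached 271 CPM per kb and *H2afz* (H2A.Z) 102, both above *Hist1h2ae* at 40.4, while *Cenpa*, the centromeric H3, was at 28.2. *H3f3b* had 711, 707 and 866 CPM in CTL and 834, 839 and 879 CPM in *Prdm1*-CKO mice. *H2afz* had 159, 155 and 186 CPM against 194, 212 and 179 CPM. *Cenpa* had 146, 162 and 153 CPM against 173, 191 and 168 CPM, and of these 3 genes it was the one whose groups did not overlap. It was also the only 1 of the 9 variant genes tested (11.1%) with every *Prdm1*-CKO mouse the higher, against 4.56% of all genes tested. All 9 variant genes tested had a log2 fold change above 0, with a median of 0.18, and none had an unadjusted p under 0.05.

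Genes that make and trim histone mRNA were detected in both groups. Their log2 fold changes ran from -0.49 (SE 0.31) for *Upf1* to 0.85 (SE 0.86) for *Zfp473*. Of 24 genes for the 3′ end cut, transcription and turnover, 1 was higher in *Prdm1*-CKO mice at an unadjusted p under 0.05 in edgeR. That was so for 0.928% of all genes tested. None of the 24 was lower, against 1.42% of all genes, and their median log2 fold change was 0.08. The higher gene was *Mtrex*, an exosome helicase, at 100.5, 78.7 and 66.0 CPM in CTL and 113, 100.5 and 129 CPM in *Prdm1*-CKO mice. The 3 with the most counts were *Snrpb*, a core protein of snRNPs, *Papola*, the poly(A) polymerase, and *Cpsf3*, the nuclease that makes the cut. Their log2 fold changes were 0.10 (SE 0.19), 0.03 (SE 0.26) and -0.18 (SE 0.18), and each overlapped between the groups. *Slbp* itself had 177 ± 14.1 CPM (SD, n = 3) in CTL and 174 ± 6.22 CPM (SD, n = 3) in *Prdm1*-CKO mice.

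Of 14 histone chaperones, which carry histones to DNA, *Asf1b* alone had an unadjusted p under 0.05 in edgeR, and its adjusted p was 0.996. Over all genes tested, 0.928% were higher at that unadjusted p. *Asf1b* had 69.9, 73.1 and 67.0 CPM in CTL and 86.1, 97.0 and 90.9 CPM in *Prdm1*-CKO mice, with the groups apart. They were also apart for *Chaf1a*, a subunit of the chaperone that works behind the replication fork. Every *Prdm1*-CKO mouse was thus the higher for 2 of the 14 (14.3%), against 4.56% of all genes tested. The 3 with the most counts, *Nap1l4*, *Atrx* and *Hjurp*, had log2 fold changes of 0.00, -0.26 and -0.24. Of 26 S phase genes, 21 had a log2 fold change above 0, with a median of 0.17. *Uhrf1*, a reader of newly copied DNA, was the only one with an unadjusted p under 0.05 in edgeR, against 0.928% of all genes higher. Its adjusted p was 0.996. *Uhrf1* had 103, 96.9 and 86.1 CPM in CTL and 124, 120 and 136 CPM in *Prdm1*-CKO mice, again apart. The groups were also apart, with every *Prdm1*-CKO mouse the higher, for *Mcm3*, *Mcm7*, *Rrm1*, *Rrm2*, *Tyms*, *Prim1* and *Lig1*. With *Uhrf1* these were 8 of the 26 (30.8%), against 4.56% of all genes tested. The genes share the same mice, and the list was chosen with earlier results of these data known, so this share is a description. The replication helicase genes *Mcm6* and *Mcm5* and the topoisomerase gene *Top2a* had the most counts, with log2 fold changes of 0.07, 0.23 and 0.16. The summed level of the S phase genes ran from 3228 to 3655 CPM in CTL and from 3580 to 3899 CPM in *Prdm1*-CKO mice.

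Markers of other cells were present in these libraries. At an unadjusted p under 0.05 in edgeR, 2 of 8 macrophage, 3 of 5 erythroid and 1 of 6 plasma cell markers were higher in *Prdm1*-CKO mice, and 2 of 5 basophil and mast cell, 2 of 6 CD8 and NK cell and 1 of 8 Tfh markers were lower. Over all genes tested, 0.928% were higher and 1.42% lower at that p. Macrophage markers, all 8 with a log2 fold change above 0, summed to 2179 to 4690 CPM in CTL and 3809 to 4608 CPM in *Prdm1*-CKO mice, with CTL replicate 2 the lowest, as it was for the clustered histone genes. B cell markers, all 8 above 0, summed to 114 to 206 CPM against 175 to 268 CPM. Erythroid markers, all 5 tested above 0, summed to 8.08 to 17.6 CPM against 12.7 to 47.4 CPM, and plasma cell markers, all 6 above 0, summed to 482 to 735 CPM against 735 to 941 CPM. Of the 6 germinal center B cell markers, *Rgs13* was at 0 in every CTL mouse, 3 were tested, and they summed to 94.6 to 124 CPM against 89.3 to 111 CPM. Basophil and mast cell markers summed to 23.7 to 106 CPM against 36.3 to 52.6 CPM, and CD8 and NK cell markers to 213 to 276 CPM against 176 to 206 CPM. Tfh markers summed to 2519 to 3349 CPM against 2421 to 2663 CPM. The part of such cells in the histone counts was not tested.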

How the data were processed

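RNA-seq of Tfh cells from 3 CTL and 3 *Prdm1*-CKO mice was analysed, with 1 library per mouse. The authors deposited raw counts of reads per gene, without normalization, and the methods name featureCounts. The submitters' processing notes list STAR 2.4.2a and DESeq2 with GRCm38.p6. Strandedness, the treatment of reads that align to several genes and whether mates were counted as 1 fragment are not given in the sources used here, and more genes had 2 counts than 1 in each library (1524 against 1311 in CTL replicate 1). If mates were counted separately, low counts and the floor of 3 counts stand for fewer fragments than counts. Whether they were was not tested. Symbols, exons, transcripts and coordinates were those of GENCODE M21 on GRCm38, and promoters those of the RefSeq table on GRCm38.p6, matched by symbol, synonym and position.

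Counts were scaled with TMM factors and tested with edgeR 4.0.16 in R 4.3.3 (filterByExpr, quasi-likelihood F test, no covariate), two-sided, with Benjamini-Hochberg adjustment over 14555 genes. The steps were tested on simulated data. DESeq2 1.42.0, other filters and scalings, a replicate block and leaving out each mouse were alternatives. Nothing in the labels says that the mice were littermates or shared a batch, and p-values measure the spread between these mice. A member was called counted above 3 counts. Named members were the 15 with the most counts, the leading 2 of each type and every tested member with an unadjusted p under 0.05 or with groups that do not overlap. Companion genes were named for an unadjusted p under 0.05 or among the 3 with the most counts in their list. *Ars2* did not match a symbol. The members and lists were chosen with earlier results of these data known.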

Additional observations from a re-analysis of the deposited data

How the results depend on the processing

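No clustered histone gene had an adjusted p under 0.05 in any alternative run. At an unadjusted p under 0.05, in place of 0 members, 1 was higher in *Prdm1*-CKO mice with DESeq2's Wald test, where 1.01% of all genes were. Without a filter 2 were higher (*Hist1h2ae* and *Hist1h3g*). The share of all genes in that run was not taken, so the 2 are not read as a result. Leaving out a mouse gave 0 to 2, with the shares of all genes given above, and 0 were lower throughout. The median log2 fold change of the tested members stayed above 0 in all alternatives run, from 0.20 to 0.59 on leaving out a mouse, and the summed level of all members differed by 0.19 to 0.59 on the log2 scale. On leaving out a mouse, 7 of the 23 named members changed sign: *Hist3h2a* ran from -0.031 to 0.95, *Hist1h1b* from -0.18 to 0.48, *Hist1h3f* from -0.19 to 0.47, *Hist1h1e* from -0.017 to 0.63, *Hist1h1c* from -0.0036 to 0.48, *Hist1h3c* from -0.56 to 0.16 and *Hist2h2be* from -0.047 to 0.33. The cause was not tested. The number of members counted in every mouse was 37 at 1 count or more, 22 at 10 or more, 25 after thinning and 31 to 37 on leaving out a mouse. Deviations of mice with the same number in both groups correlated at 0.158, 0.0282 and 0.0160, and those of other pairs at -0.131 to 0.0829. These values cannot exclude a shared batch or litter. A fit with the replicate block gave 0 members at an unadjusted p under 0.05 and a median of 0.46. With exon length scaled to the 25-mers of 1 gene, an alternative chosen after seeing the data, *Hist1h3i*, with 5.17% such 25-mers, stood first at 80.6 CPM per kb and *Hist1h2ae* second at 80.2. The planned count of 25-mers over the whole genome was not run.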
